A study of Homo sapiens with 24 samples.

Results

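The globin genes examined here were the alpha-like genes HBZ, HBA1, HBA2 and HBQ1, the beta-like genes HBE1, HBG1, HBG2, HBD and HBB, and AHSP, which encodes the chaperone of free alpha globin. Levels are given in CPM, read counts scaled to the size of the library. The genes were taken by name as the rows of a table of read counts per gene, 10 genes of the 21925 entries in the table. All 10 passed the filter on low counts, which left 13147 genes for testing. The libraries came from K562, a human erythroleukaemia cell line, carrying dCas9-KRAB, a CRISPR interference (CRISPRi) repressor, under a doxycycline-inducible promoter. Every group, the controls included, carried this repressor, received 1 sgRNA and was kept in doxycycline for 24 h before RNA was prepared from 10000 cells. The sgRNA groups were GATA1TSS-Guide2 and GATA1TSS-Guide1, which target the transcription start site of GATA1, eHDAC6-Guide2 and eHDAC6-Guide1, which target a putative enhancer of GATA1, and 4 negative control sgRNAs (NC-Guide1 to NC-Guide4). Each of the 8 sgRNAs had 3 replicates, 24 libraries in all, so that 6 libraries stood for GATA1TSS, 6 for eHDAC6 and 12 for NC. K562 is a leukaemic line and not a normal red cell precursor, which limits it as a model of globin expression.

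Haemoglobin is assembled from a pair of alpha-like and a pair of beta-like chains, each holding a heme. The alpha-like genes lie in a cluster on chromosome 16 and the beta-like genes in a cluster on chromosome 11, each under a distant enhancer region, and both are switched during development: HBZ (zeta) and HBE1 (epsilon) are embryonic, HBG1 and HBG2 (gamma) are fetal, and HBD (delta) and HBB (beta) are adult, whereas HBA1 and HBA2 (alpha) serve fetal and adult life. GATA1 is the erythroid zinc finger transcription factor that binds GATA motifs at globin genes and at AHSP, and K562 is known for embryonic and fetal globin with little or no beta globin.

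Depth ranged from 4290343 counts (GATA1TSS-Guide2 replicate 2) to 23205811 counts per library, with a median of 13479000. Replicates were described as biological, and no replicate pair agreed within sampling noise (chi-square per degree of freedom 2.43 to 29.8 over 24 pairs). Erythroid identity was checked with 9 markers, all of which averaged at least 1 CPM. Their summed level had a median of 1539 CPM in GATA1TSS, 1866 CPM in eHDAC6 and 2392 CPM in NC libraries, a sum that includes GATA1 and KLF1. An average of at least 1 CPM was also reached by 2 of 5 lymphocyte, 1 of 4 fibroblast, 3 of 5 epithelial, 1 of 5 monocyte and granulocyte and 2 of 5 megakaryocyte markers, with median sums of 40.1, 21.9, 695, 80.2 and 33.7 CPM in GATA1TSS, 30.2, 9.56, 609, 86.3 and 39.3 CPM in eHDAC6 and 27.5, 13.7, 567, 78.6 and 35.5 CPM in NC libraries. GATA1 itself had 60.2, 42.1 and 57.0 CPM with GATA1TSS-Guide2, 130, 96.2 and 123 CPM with GATA1TSS-Guide1, 256, 258 and 267 CPM with eHDAC6-Guide2 and 253, 242 and 246 CPM with eHDAC6-Guide1. The 12 NC libraries had a lowest level of 281, a median of 370 and a highest of 395 CPM, above every library of the other groups. The fitted log2 difference of GATA1 was −2.19 for GATA1TSS minus NC (adjusted p = 2.81e-17) and −0.52 for eHDAC6 minus NC (adjusted p = 6.52e-06). By mean CPM, GATA1 stood at 23.4% of the NC mean in GATA1TSS libraries and at 69.9% in eHDAC6 libraries. All adjusted p-values are from edgeR's quasi-likelihood test with Benjamini-Hochberg adjustment over all tested genes, and the threshold for a call is an adjusted p under 0.05.

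The NC libraries did not form 1 set. On the first principal component of the 12 controls, computed over the 2000 most variable genes without the globin genes and carrying 26.1% of their variance, replicates 2 and 3 of NC-Guide3 and NC-Guide4 lay at −28.9 to −17.2. The other 8 NC libraries, those of NC-Guide1 and NC-Guide2 with the first replicates of NC-Guide3 and NC-Guide4, lay at 7.38 to 13.3. No label gives a batch for these 4 libraries, and their separation cuts across sgRNAs. For the 10 genes, GATA1TSS minus NC and eHDAC6 minus NC are therefore given against all 12 controls, against the 4 libraries alone and against the other 8 alone, and gene lists against all 12 and the 4. GATA1 did not follow this division: it averaged 362 ± 35.2 CPM in the 8 libraries and 366 ± 12.8 CPM in the 4 (SD), with overlapping ranges. The summed erythroid markers had a median of 2447 CPM in the 8 and 2087 CPM in the 4. Of 9 tested markers, 9 were called lower in GATA1TSS and 8 in eHDAC6 against all 12, beside 13.7% and 15.3% of all genes. Against the 4 these counts were 5 and 1, with 10.2% and 1.49% of all genes called in either direction.

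Fetal and embryonic genes made up most of the globin RNA in every group. Per kilobase of exon, so that genes of different length can be compared, HBG2 had a mean level of 4013 ± 704 CPM per kb in GATA1TSS, 3844 ± 599 in eHDAC6 and 5720 ± 1241 in NC libraries (SD, n = 6, 6 and 12). HBG1 followed with 3629 ± 631, 3483 ± 534 and 5154 ± 1115 CPM per kb in the same order of groups, and HBE1 with 2614 ± 576, 2589 ± 453 and 3894 ± 880 CPM per kb. HBA1, HBA2 and HBZ formed the next tier. HBA1 stood at 1877 ± 510 CPM per kb in GATA1TSS, 1767 ± 273 in eHDAC6 and 2448 ± 536 in NC libraries. The level of HBA2 was 1649 ± 442, 1538 ± 243 and 2197 ± 519 CPM per kb, and that of HBZ was 1250 ± 370, 993 ± 184 and 2008 ± 672 CPM per kb. The spreads of neighbours in this order overlapped within NC libraries for HBG2 and HBG1, for HBG1 and HBE1, and among HBA1, HBA2 and HBZ. The remaining genes were far lower. HBQ1 averaged 43.6 ± 6.43 CPM per kb in GATA1TSS, 49.5 ± 3.94 in eHDAC6 and 65.4 ± 15.4 in NC libraries. HBD averaged 13.9 ± 2.61, 13.4 ± 2.94 and 18.4 ± 4.49 CPM per kb and AHSP 11.8 ± 5.64, 11.7 ± 3.53 and 26.4 ± 10.7 CPM per kb, with overlapping spreads. HBB was last, at 1.42 ± 0.693, 1.46 ± 0.346 and 1.62 ± 0.452 CPM per kb. The sum over the 10 genes was 9509 ± 1998 CPM in GATA1TSS, 9022 ± 1428 CPM in eHDAC6 and 13590 ± 3097 CPM in NC libraries, or 0.951%, 0.902% and 1.36% of all counts after scaling.

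**Figure D1:**
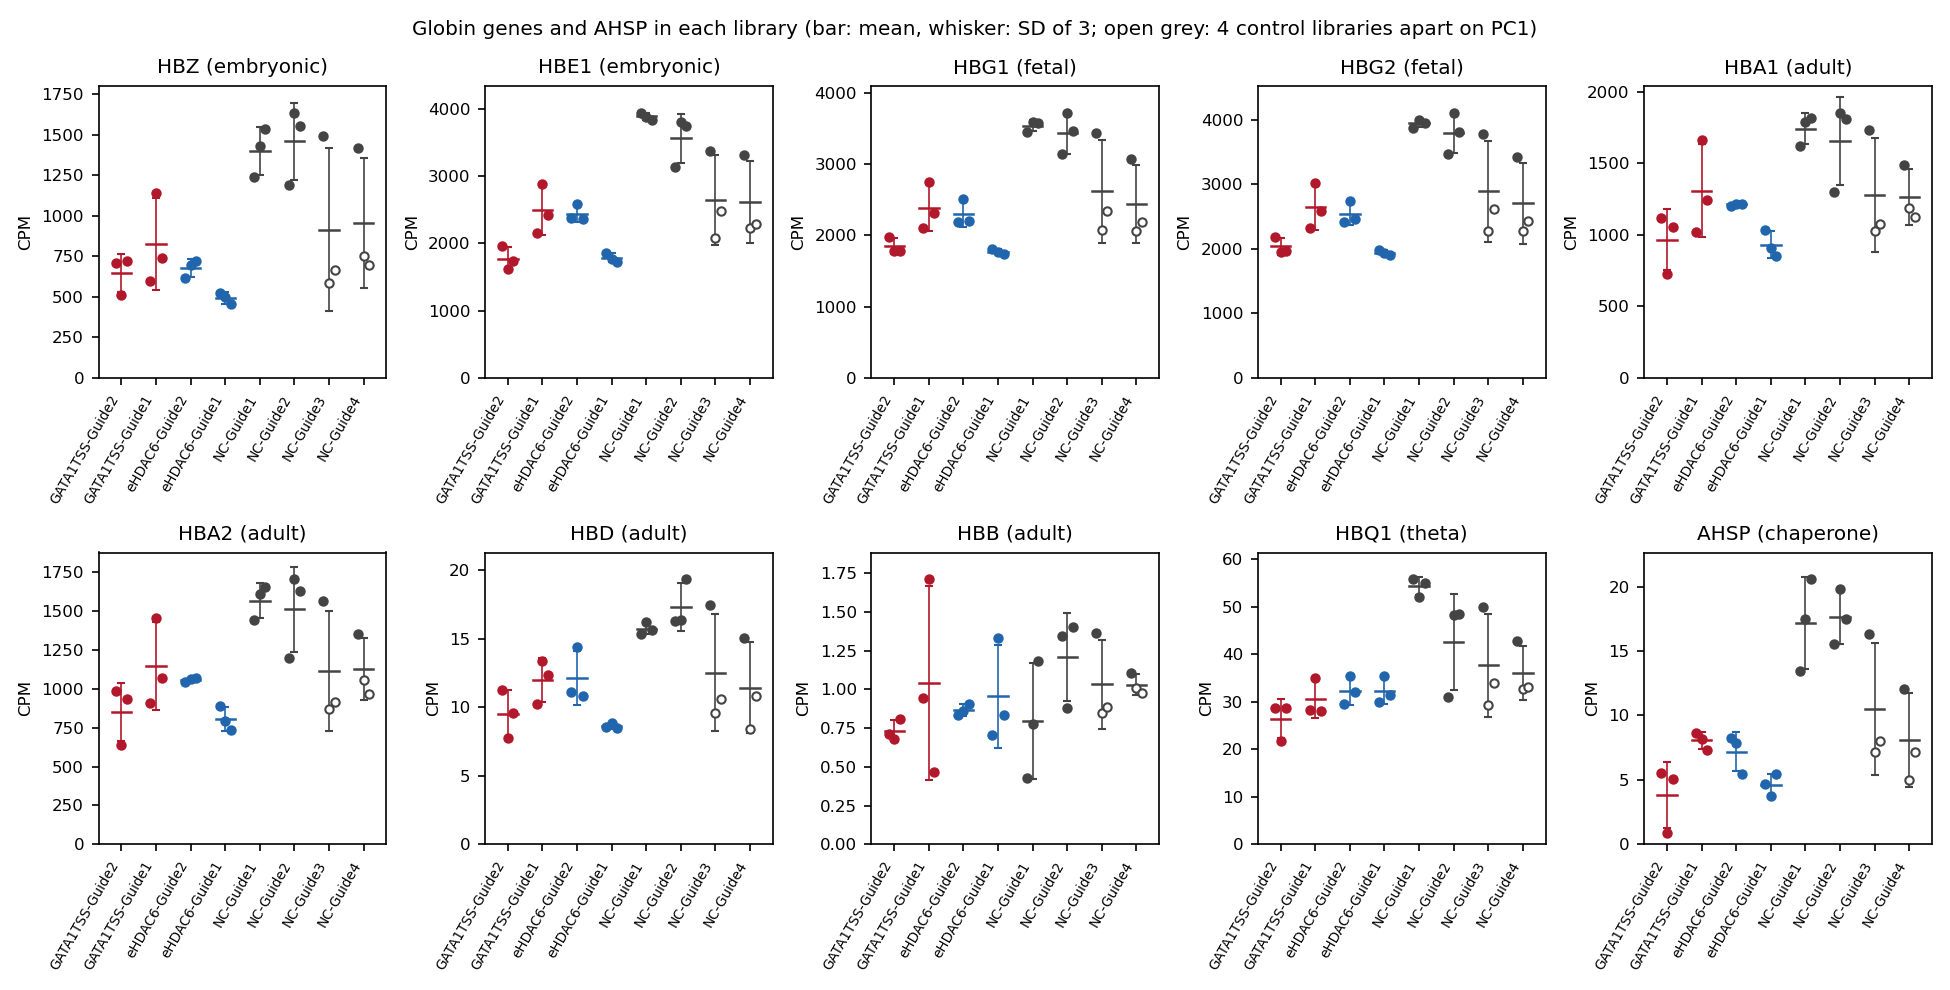
Level (CPM, linear axis from 0, scaled separately for each gene) of each globin gene and of AHSP in every library, by sgRNA, with the GATA1-targeting sgRNAs left of the NC sgRNAs; bars are means and whiskers the SD of 3 replicates, and open grey circles mark the 4 NC libraries that stand apart. For HBZ the 4 NC libraries lie at 585 to 752 CPM, among the libraries of the targeting sgRNAs, and the other 8 lie at 1190 CPM or higher.

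Against all 12 NC libraries, 9 of the 10 genes were lower in GATA1TSS and 9 of 10 were lower in eHDAC6, and HBB alone was not called in either. None was higher. Among all tested genes, 13.7% were called lower and 13.5% higher in GATA1TSS, and 15.3% lower and 15.8% higher in eHDAC6. The median log2 difference over the 10 genes was −0.50 for GATA1TSS and −0.53 for eHDAC6, against −0.00 and −0.01 over all tested genes. Against the 4 NC libraries that stand apart, none of the 10 was called in either comparison by the same test. Of all genes, 10.2% and 1.49% were called, so that 0 of 10 is near these shares. At an unadjusted p under 0.05 there were 0 of the 10, beside 22.8% and 14.7% of all genes. The medians were then −0.05 and −0.08. Against the other 8 NC libraries, 9 of 10 were again called lower in both, with backgrounds of 14.2% and 15.8% and medians of −0.66 and −0.69. The GATA1 difference was −2.20 for GATA1TSS and −0.53 for eHDAC6 against the 4. With counts summed per sgRNA, so that the spread between sgRNAs sets the error, none of the 10 was called in GATA1TSS (background 2.17% lower) and 1, HBZ, in eHDAC6 (background 0.955%). In that fit 8 and 9 of the 10 had an unadjusted p under 0.05, beside 22.4% and 23.6% of all genes. Both comparisons share the NC libraries. In bulk RNA, fewer cells expressing a gene and less of its RNA per cell cannot be told apart.

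**Figure D2:**
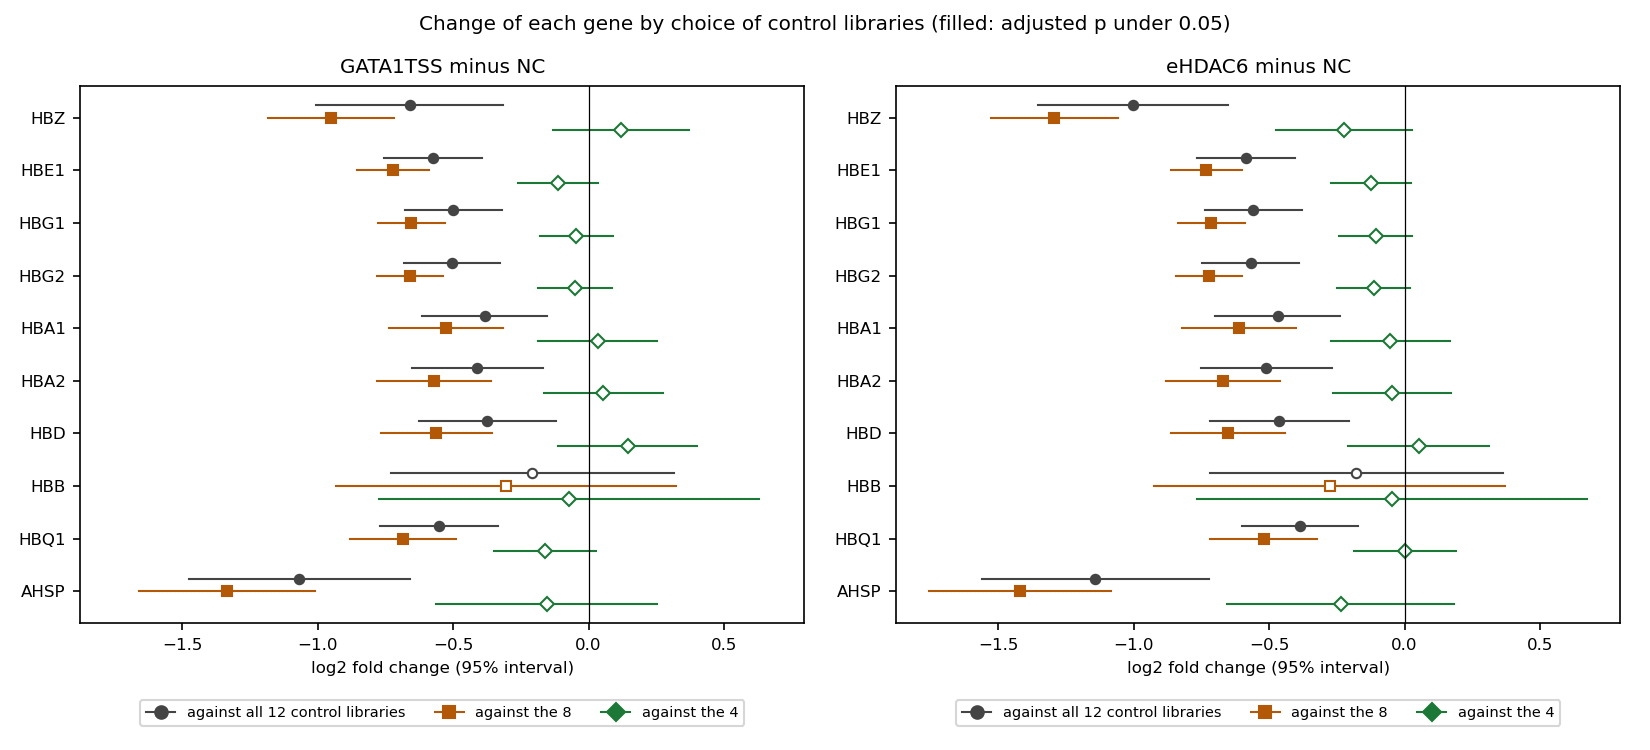
Fitted log2 difference with its 95% interval for each gene, GATA1TSS minus NC and eHDAC6 minus NC, against all 12 NC libraries (grey circles), the 8 NC libraries (orange squares) and the 4 that stand apart (green diamonds); filled symbols have an adjusted p under 0.05. Filled symbols appear for 9 of 10 genes with all 12 or with the 8, and for none of the 10 with the 4.

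HBZ, the embryonic zeta chain of the alpha cluster (hg19 chr16:202854-204504, plus strand, 3 exons), had the largest fitted difference among the globin chains in both comparisons. HBZ had 709, 510 and 721 CPM with GATA1TSS-Guide2 and 596, 1143 and 739 CPM with GATA1TSS-Guide1. It had 616, 694 and 720 CPM with eHDAC6-Guide2 and 526, 500 and 454 CPM with eHDAC6-Guide1. The lowest, median and highest NC libraries had 585, 1327 and 1637 CPM. All 12 libraries of the targeting sgRNAs lay below the lowest of the 8 NC libraries, but only 1 of 6 GATA1TSS and 3 of 6 eHDAC6 libraries lay below the lowest of all 12, and those 3 were the eHDAC6-Guide1 libraries. HBZ fell by 0.66 (SE 0.168, log2) in GATA1TSS (adjusted p = 0.00409) and by 1.001 (SE 0.171) in eHDAC6 (adjusted p = 1.13e-04), to 62.3% and 49.5% of the NC mean. With only the 4 NC libraries as controls, the log2 difference was 0.12 for GATA1TSS (95% interval −0.13 to 0.37) and −0.22 for eHDAC6 (−0.47 to 0.03), neither of them called, and against the 8 it was −0.95 and −1.29, both called.

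HBE1, the embryonic epsilon chain (chr11:5289580-5291373, minus strand), had 1967, 1612 and 1744 CPM with GATA1TSS-Guide2 and 2161, 2887 and 2426 CPM with GATA1TSS-Guide1. It had 2380, 2580 and 2358 CPM with eHDAC6-Guide2 and 1859, 1772 and 1724 CPM with eHDAC6-Guide1, against a lowest, median and highest level of 2078, 3347 and 3948 CPM in NC libraries. The 6 libraries of GATA1TSS-Guide2 and eHDAC6-Guide1 lay below all 12 NC libraries, whereas the other 6 lay within the NC range. The log2 difference was −0.57 (SE 0.0882, adjusted p = 2.06e-05) in GATA1TSS and −0.58 (adjusted p = 2.94e-05) in eHDAC6, and −0.11 and −0.12 against the 4, with neither called. It was −0.72 and −0.73 against the 8.

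The fetal gamma genes HBG1 (chr11:5269502-5271087) and HBG2 (chr11:5274421-5276011) are near-identical copies, so reads can be shared between them and each row alone is uncertain. Their count ratio, HBG1 over HBG2, stayed between 0.890 and 0.915 in all 24 libraries. Summed, they had a lowest, median and highest level of 3725, 4297 and 5771 CPM in GATA1TSS and 3646, 4191 and 5259 CPM in eHDAC6, against 4328, 6915 and 7836 CPM in NC libraries. By sgRNA the sums were 3884 ± 246 CPM for GATA1TSS-Guide2, 5034 ± 682 CPM for GATA1TSS-Guide1, 4838 ± 365 CPM for eHDAC6-Guide2 and 3711 ± 68.9 CPM for eHDAC6-Guide1 (SD, n = 3). Among the controls they were 7485 ± 141 CPM for NC-Guide1, 7240 ± 612 CPM for NC-Guide2, 5511 ± 1506 CPM for NC-Guide3 and 5143 ± 1170 CPM for NC-Guide4. The 8 NC libraries had 7234 ± 469 CPM and the 4 had 4566 ± 291 CPM. With the copies summed, gamma RNA fell by 0.50 in GATA1TSS (adjusted p = 8.28e-05) and by 0.56 in eHDAC6 (adjusted p = 3.73e-05) on the log2 scale. As single rows, HBG1 gave −0.50 and −0.56 and HBG2 −0.50 and −0.57. Against the 4, HBG1 gave −0.05 and −0.11, not called, and against the 8 it gave −0.65 and −0.71.

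The alpha genes HBA2 (chr16:222846-223709) and HBA1 (chr16:226650-227521) are likewise near-identical, and their rows carry the same uncertainty. Summed, they had a lowest, median and highest level of 1363, 2045 and 3118 CPM in GATA1TSS, 1583, 2081 and 2285 CPM in eHDAC6 and 1893, 2948 and 3559 CPM in NC libraries. Within GATA1TSS, GATA1TSS-Guide2 averaged 1818 ± 398 CPM and GATA1TSS-Guide1 2452 ± 608 CPM (SD, n = 3 each). The summed alpha genes fell by 0.40 in GATA1TSS (adjusted p = 0.0106) and by 0.48 in eHDAC6 (adjusted p = 0.00234), a smaller log2 value than that of HBZ in the same cluster; the difference between these genes was not tested. The call for HBA1 alone in GATA1TSS (−0.38, adjusted p = 0.0117) was lost without GATA1TSS-Guide1 replicate 1 (−0.31, adjusted p = 0.0570). For HBA1, the values against the 4 were 0.03 in GATA1TSS and −0.05 in eHDAC6, and neither was called, whereas those against the 8 were −0.53 and −0.61.

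HBD, the minor adult delta chain (chr11:5254059-5255858), had 11.2, 7.74 and 9.55 CPM with GATA1TSS-Guide2, 10.2, 13.3 and 12.4 CPM with GATA1TSS-Guide1, 11.1, 14.4 and 10.8 CPM with eHDAC6-Guide2 and 8.56, 8.87 and 8.50 CPM with eHDAC6-Guide1. The NC libraries had a lowest level of 8.44, a median of 15.5 and a highest of 19.3 CPM, so that the ranges overlapped except for 1 GATA1TSS library. HBD fell by 0.37 in GATA1TSS (adjusted p = 0.0240) and by 0.46 in eHDAC6 (adjusted p = 0.00670) on the log2 scale. The GATA1TSS call was lost without GATA1TSS-Guide1 replicate 1 (adjusted p = 0.0809) or without GATA1TSS-Guide2 replicate 3 (adjusted p = 0.0630), and against the 4 NC libraries the differences were 0.14 and 0.05, not called. With the 8 they were −0.56 and −0.65. HBD was the 1 gene of the 10 with an entry in the RefSeq promoter table used here. Its 250 bases before the transcription start are shown because GATA1 is known to bind GATA motifs at globin promoters (GRCh38.p14 chr11:5234484-5234733, minus strand). The start is that of the promoter table. It was not compared with the start of the hg19 gene model used for the levels per kb, so part of the window may lie within that model. Capitals mark the letters CCAAT, not shown to be a working promoter box, and TTATC, which reads GATAA on the other strand.
HBD promoter: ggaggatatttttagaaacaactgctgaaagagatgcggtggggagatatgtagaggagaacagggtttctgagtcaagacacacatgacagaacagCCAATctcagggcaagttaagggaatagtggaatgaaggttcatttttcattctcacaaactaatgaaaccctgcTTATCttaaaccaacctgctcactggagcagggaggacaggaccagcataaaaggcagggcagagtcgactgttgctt
The CCAAT began 153 bases and the TTATC 78 bases before the start, and CACCC, the core of the motif that KLF1 binds, was not found in this window on either strand. GATAA was present on either strand in 20.4% of 35116 promoter windows of the same length, CCAAT in 32% and CACCC in 54.7%. These are matches of letters and not measured binding.

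HBB, the adult beta chain (chr11:5246696-5248301), was close to the limit of what this depth can show, with 3 to 34 counts per library. The lowest, median and highest levels were 0.466, 0.759 and 1.71 CPM in GATA1TSS, 0.702, 0.848 and 1.33 CPM in eHDAC6 and 0.431, 0.993 and 1.41 CPM in NC libraries. The ranges overlapped throughout. The log2 differences of −0.21 in GATA1TSS (95% interval −0.73 to 0.31, adjusted p = 0.596) and −0.18 in eHDAC6 (−0.72 to 0.36, adjusted p = 0.643) were not called, and both intervals hold the values seen for the other beta-like genes. Against the 4 the differences were −0.07 and −0.04, and against the 8 −0.30 and −0.28, none of them called.

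HBQ1, which encodes the theta chain of the alpha cluster (chr16:230333-231178), differed from the other genes in how its libraries were ordered. It had 28.8, 21.8 and 28.8 CPM with GATA1TSS-Guide2, 28.3, 35.1 and 28.1 CPM with GATA1TSS-Guide1, 29.5, 35.4 and 32.1 CPM with eHDAC6-Guide2 and 30.0, 35.4 and 31.5 CPM with eHDAC6-Guide1. NC libraries had a lowest level of 29.3, a median of 45.5 and a highest of 55.8 CPM. Of the GATA1TSS libraries, 5 of 6 lay below all 12 controls, and of the eHDAC6 libraries none did. The log2 difference was −0.55 in GATA1TSS (adjusted p = 2.71e-04) and −0.39 in eHDAC6 (adjusted p = 0.00666). GATA1TSS gave −0.16 against the 4 and was not called, and eHDAC6 gave 5e-04. Against the 8 they gave −0.68 and −0.52.

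AHSP, on chromosome 16 outside the alpha cluster (chr16:31539203-31540124, plus strand), had the largest log2 difference of the 10 genes in both comparisons. It had 5.55, 0.910 and 5.08 CPM with GATA1TSS-Guide2, where the second replicate rests on 4 counts, and 8.66, 8.21 and 7.35 CPM with GATA1TSS-Guide1. It had 8.24, 7.84 and 5.44 CPM with eHDAC6-Guide2 and 4.66, 3.73 and 5.46 CPM with eHDAC6-Guide1, against a lowest, median and highest level of 4.98, 14.5 and 20.6 CPM in NC libraries. All 12 libraries of the targeting sgRNAs lay below the lowest of the 8 NC libraries, and only 3 lay below the lowest of all 12. AHSP fell by 1.07 (SE 0.199, 95% interval −1.48 to −0.66) in GATA1TSS (adjusted p = 2.09e-04) and by 1.14 (−1.56 to −0.72) in eHDAC6 (adjusted p = 1.83e-04), to 44.6% and 44.1% of the NC mean. With the 4 as controls the log2 differences were −0.15 (−0.56 to 0.25) and −0.24, not called, and with the 8 they were −1.33 and −1.42, both called.

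Most of these genes also differed between the NC libraries themselves. HBZ averaged 1436 ± 155 CPM in the 8 NC libraries and 675 ± 69.9 CPM in the 4, a ratio of 2.13. AHSP averaged 16.6 ± 2.91 and 6.83 ± 1.30 CPM, a ratio of 2.43, and HBE1 3631 ± 305 and 2270 ± 165 CPM, a ratio of 1.60. The summed gamma genes had a ratio of 1.58, the summed alpha genes 1.56, HBD 1.67 and HBQ1 1.49. Of the 10 genes, 8 were higher in every one of the 8 libraries than in any of the 4, a pattern found in 5.9% of all tested genes, and only HBQ1 and HBB overlapped. Genes of the amino acid stress response moved with the same libraries: the summed level of 10 ATF4 targets had a lowest, median and highest value of 648, 799 and 1047 CPM in GATA1TSS and 797, 952 and 1220 CPM in eHDAC6, against 2709, 3068 and 3788 CPM in the 8 NC libraries and 1151, 1212 and 1347 CPM in the 4. All 10 of these stress genes were called lower in both comparisons with all 12 controls, beside 13.7% (GATA1TSS) and 15.3% (eHDAC6) of all genes. Against the 4, 10 of 10 were lower in GATA1TSS and 5 of 10 in eHDAC6, with 10.2% and 1.49% of all genes called in either direction. The part of this response, or of how the 4 libraries were handled, in the globin values was not tested. A test for any difference among the 4 NC sgRNAs called HBE1 (adjusted p = 0.0153), HBG1 (0.0206), HBG2 (0.0194) and AHSP (0.0289), 4 of 10 genes, with 12.3% of all genes called. That count was 9 without NC-Guide3 replicate 1 or NC-Guide4 replicate 1 and 1 without NC-Guide4 replicate 2. In a fit of the NC libraries alone, where their own spread sets the error, none of the 10 was called (7 at an unadjusted p under 0.05), with 0.11% of all genes called.

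The start site and the enhancer were also set against each other directly, a difference whose value rests on the targeting libraries and whose error comes from the fit of all 24. GATA1 was 1.67 lower on the log2 scale in GATA1TSS than in eHDAC6 (adjusted p = 1.13e-13), and none of the 10 globin genes was called (0 by DESeq2), with 1.53% of all genes called. At an unadjusted p under 0.05 there were 0 of the 10, beside 15% of all genes. The difference, GATA1TSS minus eHDAC6, was 0.01 for HBE1 (95% interval −0.19 to 0.22), 0.06 for HBG1 (−0.14 to 0.26) and 0.08 for HBA1 (−0.18 to 0.35). It was −0.17 for HBQ1 (−0.41 to 0.08), 0.07 for AHSP (−0.41 to 0.56) and 0.34 for HBZ (−0.05 to 0.73, adjusted p = 0.404). In a fit without the NC libraries none of the 10 was called either. There 1, HBZ, had an unadjusted p under 0.05 (0.34, adjusted p = 0.0734), beside 20.4% of all genes. For HBE1 and HBG1 the intervals leave room for differences of up to about 0.26 in size, and for AHSP and HBB for wider ones.

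Within each target, the pair of sgRNAs was compared. GATA1TSS-Guide2, which left GATA1 at 14.6% of the NC mean, had lower values than GATA1TSS-Guide1, which left it at 32.1%, for all 10 genes. None of these differences was called (1 gene, HBE1, by DESeq2), with 3.48% of all genes called. At an unadjusted p under 0.05 there were 6 of the 10, beside 17.7% of all genes. HBE1 was closest, at −0.49 (95% interval −0.78 to −0.20, adjusted p = 0.0506), followed by HBG2 at −0.38 (adjusted p = 0.137), HBG1 at −0.37 (0.146) and AHSP at −0.82 (0.172). When only the 6 libraries of the pair entered the fit, HBE1 (adjusted p = 0.0163), HBG2 (0.0371) and HBG1 (0.0388) were called lower with GATA1TSS-Guide2, 3 of 10 genes against 1.99% of all genes.

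In the eHDAC6 pair, Guide2 had the higher globin values, and GATA1 did not differ by a called amount. GATA1 stood at 71.6% of the NC mean with eHDAC6-Guide2 and at 68.1% with eHDAC6-Guide1, a log2 difference of 0.07 (95% interval −0.15 to 0.30). HBE1 was 0.45 higher with eHDAC6-Guide2 (95% interval 0.16 to 0.74), HBZ 0.45, HBD 0.48 and AHSP 0.63, whereas HBQ1 differed by 0.00 and HBB by −0.11. With the spread of all 24 libraries as the error, none of the 10 was called (0 by DESeq2), with 0.0152% of all genes called. At an unadjusted p under 0.05 there were 6 of the 10, beside 3.63% of all genes. With the 6 libraries of the pair alone, 6 of 10 were called higher with eHDAC6-Guide2, against 0.283% of all genes: HBE1 (adjusted p = 1.25e-04), HBZ (1.43e-04), HBA2 (9.36e-04), HBG2 (0.00133), HBA1 (0.00187) and HBG1 (0.00230). The 6-library fit differs in the libraries that set the error, in the scaling and in the genes that pass the filter, and which of these moved the count was not tested. For HBZ, HBE1 and HBA1 the 3 replicates of eHDAC6-Guide1 all lay below the 3 of eHDAC6-Guide2.

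**Figure D3:**
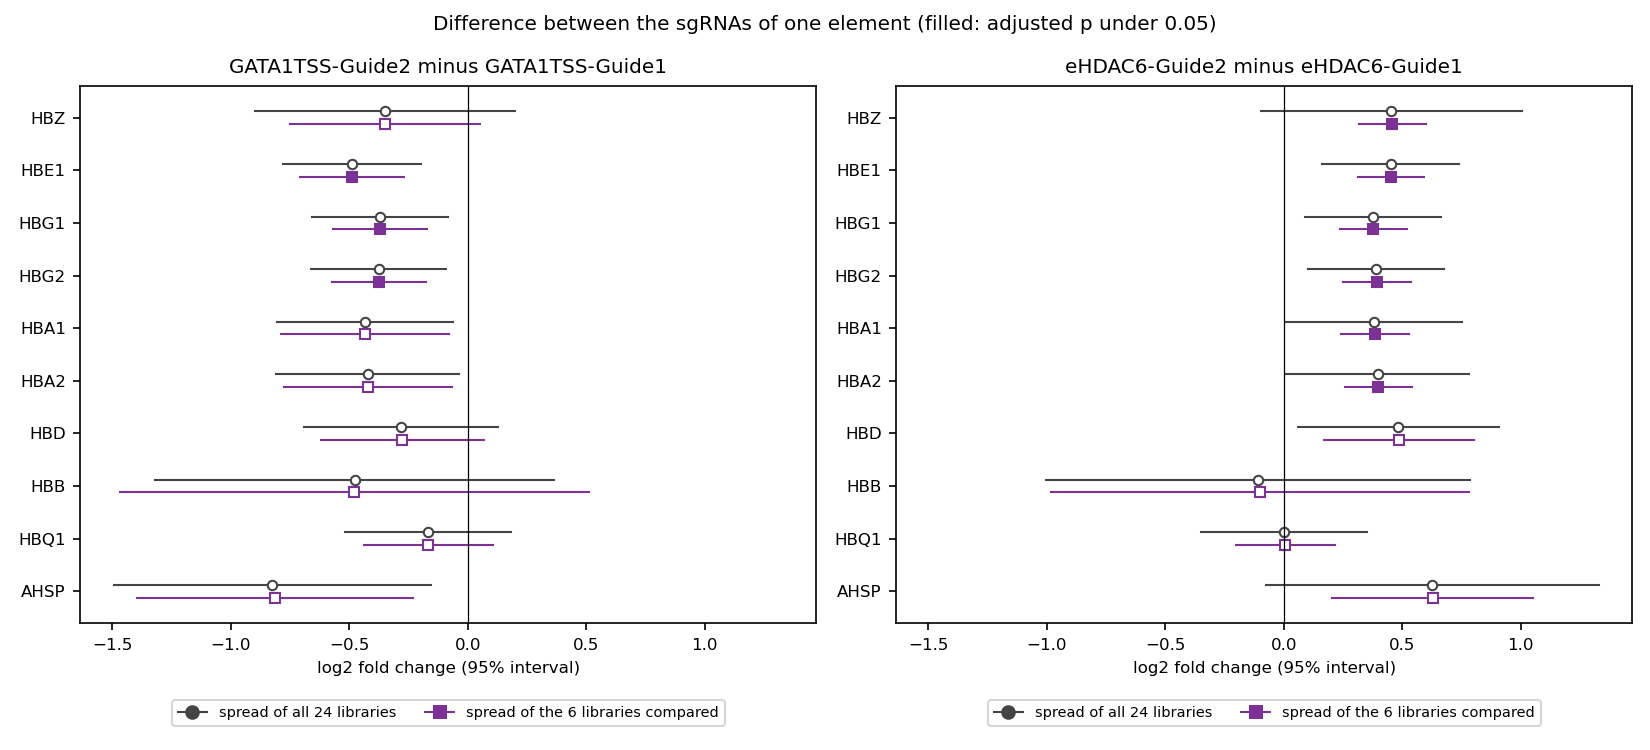
Fitted log2 difference with its 95% interval for each gene, GATA1TSS-Guide2 minus GATA1TSS-Guide1 and eHDAC6-Guide2 minus eHDAC6-Guide1, with the error set by all 24 libraries (grey) or by the 6 libraries compared (purple); filled symbols have an adjusted p under 0.05. All 10 genes lie below 0 in the GATA1TSS pair, while HBE1 lies at −0.49 in that pair and at 0.45 in the eHDAC6 pair.

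Against all 12 controls, the single sgRNAs gave different counts. GATA1TSS-Guide2 had 9 of 10 genes lower (background 12.4%), with HBE1 at −0.82 (adjusted p = 8.78e-06), HBZ at −0.83 (0.00670) and AHSP at −1.48 (2.36e-04). Without its replicate 2, the shallowest library, 5 were called. GATA1TSS-Guide1 had 1 of 10 lower (background 5.8%, 6 at an unadjusted p under 0.05 beside 27.2% of all genes), which was HBQ1 at −0.47 (adjusted p = 0.0237), and HBE1 missed at −0.33 (0.0580). This count was 0 without its replicate 1 or 3, 2 without its replicate 2 or NC-Guide2 replicate 1, 4 without NC-Guide3 replicate 2, and 5 without NC-Guide3 replicate 3 or NC-Guide4 replicate 2. eHDAC6-Guide2 had 6 of 10 lower (background 8.91%), with HBZ at −0.77 (0.0165) and HBE1 at −0.36 (0.0286), and 0 without its replicate 1 or 3 and 2 without its replicate 2. eHDAC6-Guide1 had 8 of 10 lower (background 7.35%), with HBZ at −1.23 (9.74e-04), HBE1 at −0.81 (1.49e-04) and AHSP at −1.45 (0.00116). Against the 4 NC libraries, GATA1TSS-Guide2 alone had calls, 3 of 10 against a background of 9.86%: HBE1 at −0.36 (adjusted p = 0.00424), HBG2 at −0.24 (0.0334) and HBG1 at −0.23 (0.0383). eHDAC6-Guide1 gave −0.35 for HBE1 (0.0693) and −0.45 for HBZ (0.187), with none called and a background of 0.389% called. For this sgRNA 5 of the 10 had an unadjusted p under 0.05, beside 11.6% of all genes. GATA1TSS-Guide1 and eHDAC6-Guide2 had 0 called against the 4 (1 and 0 at an unadjusted p under 0.05, beside 9.1% and 12.8% of all genes), with backgrounds of 0.35% and 1.7%. Their direction did not hold either: for each of them 1 of 10 genes lay below 0 against the 4, with median log2 differences of 0.21 and 0.08, against medians of −0.31 and −0.36 with all 12. All these comparisons share the NC libraries.

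The gamma and HBE1 shares of the beta-like RNA varied less than the amount of globin RNA. Of the beta-like RNA per kb, the gamma genes made up 74.5 ± 1.01% in GATA1TSS, 73.8 ± 0.650% in eHDAC6 and 73.6 ± 0.803% in NC libraries (SD), and HBE1 25.3 ± 1.002%, 26.0 ± 0.654% and 26.3 ± 0.809%. Over all 24 libraries HBE1 stayed between 23.6% and 27.8%, HBD between 0.107% and 0.152% and HBB between 0.00395% and 0.0249%. Of the alpha-like RNA, HBZ made up 25.9 ± 1.495% in GATA1TSS and 22.8 ± 0.987% in eHDAC6, against 31.4 ± 1.44% in the 8 NC libraries and 25.0 ± 0.760% in the 4. The GATA1TSS libraries, at 23.9% to 27.5%, overlapped the 4, at 23.8% to 25.4%, and lay below the 8, at 29.1% to 33.6%, and 6 eHDAC6 libraries lay at 21.7% to 24.2%. The ratio of alpha-like to beta-like RNA per kb was 0.465 ± 0.0635 in GATA1TSS, 0.438 ± 0.0253 in eHDAC6 and 0.452 ± 0.0378 in NC libraries. AHSP for every 1000 of alpha-like RNA, both per kb, stood at 2.38 ± 1.12 in GATA1TSS and 2.67 ± 0.614 in eHDAC6, against 4.22 ± 0.554 in the 8 NC libraries and 2.98 ± 0.716 in the 4.

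**Figure D4:**
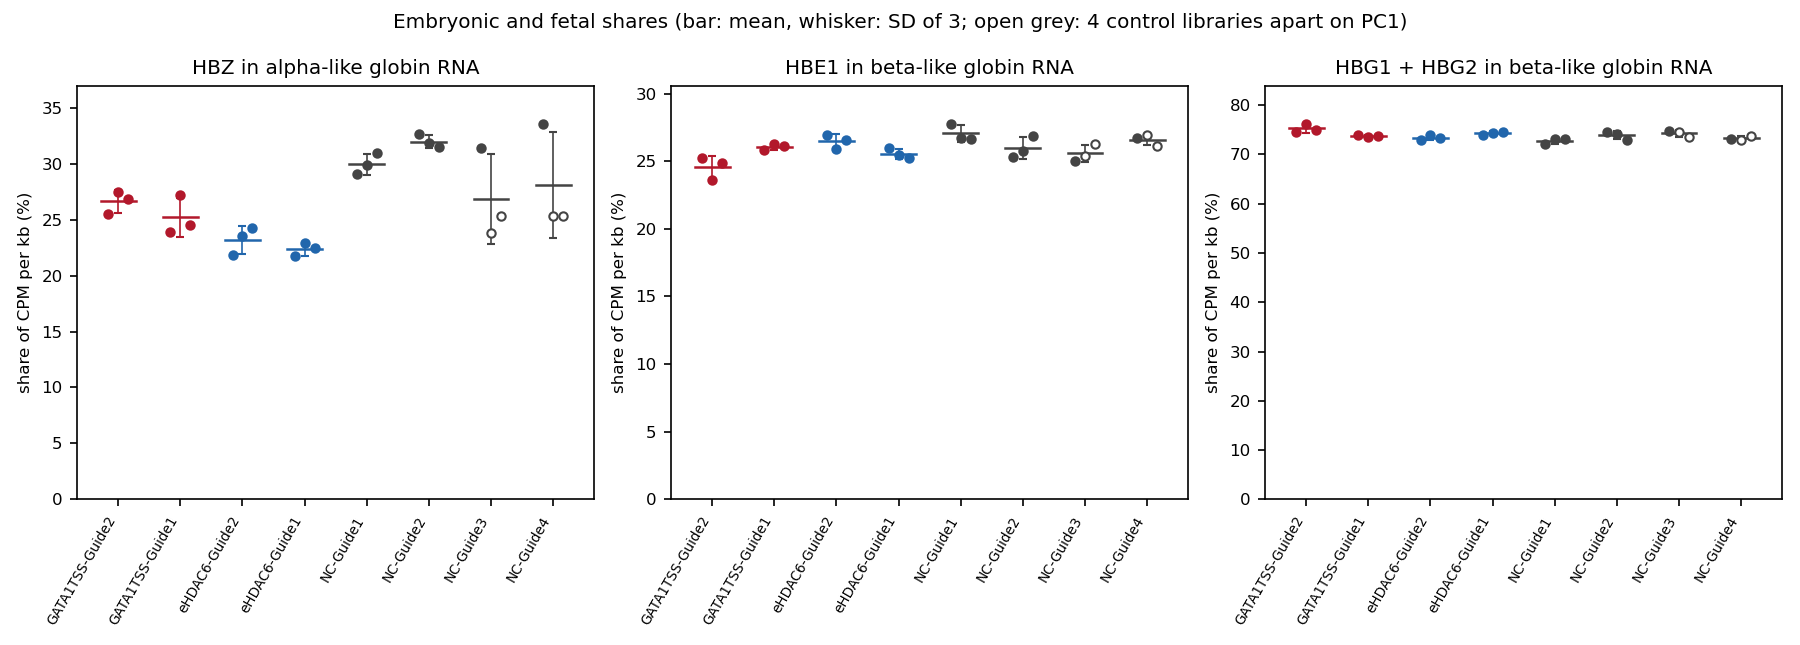
Share of HBZ in the alpha-like RNA and of HBE1 and of HBG1 with HBG2 in the beta-like RNA (percent, levels per kb) in every library, by sgRNA; bars are means and whiskers the SD of 3 replicates, and open grey circles mark the 4 NC libraries that stand apart. The HBZ share is 29.1% or higher in 8 NC libraries and 27.5% or lower in the other 16 libraries, while the HBE1 share stays between 23.6% and 27.8% throughout.

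Among other genes of the pathway, a list of regulators of globin genes mixed activators with repressors, and transcription factors with chromatin enzymes and RNA-binding proteins. Of 24 tested regulators, GATA1 included, 8 were lower and 4 higher in GATA1TSS and 7 lower and 6 higher in eHDAC6, with median log2 differences of −0.01 and −0.02. Over all tested genes 13.7% were lower and 13.5% higher in GATA1TSS, and 15.3% lower and 15.8% higher in eHDAC6. KLF1, an erythroid activator of adult beta globin, fell by 0.96 in GATA1TSS (adjusted p = 1.91e-11) and by 0.36 in eHDAC6 (5.27e-05) relative to all NC libraries. LDB1, which bridges enhancers and globin promoters, fell by 0.47 in GATA1TSS (1.42e-06). With the 4 as controls, 5 regulators were lower and 1 higher in GATA1TSS, and 1 lower and none higher in eHDAC6, with 10.2% and 1.49% of all genes called. GATA1 itself is on this list, with a mean of 253.6 CPM in eHDAC6 and 366.1 CPM in the 4. KLF1 averaged 162 CPM in eHDAC6 and 191.5 CPM in the 4. As only 1 regulator was called lower in eHDAC6 there, GATA1 and KLF1 were not both called. Between the targets, KLF1 was 0.60 lower in GATA1TSS than in eHDAC6 (6.44e-06) and LDB1 0.49 lower (1.69e-04). Between GATA1TSS-Guide2 and GATA1TSS-Guide1, KLF1 gave −0.90 (2.60e-06), LDB1 −0.48 (0.00476) and NFE2, which binds the beta globin enhancer region, −0.42 (0.00216). BCL11A, the repressor of gamma globin, averaged 0.104 CPM and was not tested.

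In heme synthesis, which supplies the prosthetic group of the globin chains, 8 of 10 tested genes were lower and 1 higher in GATA1TSS with all 12 controls, and 9 lower and 1 higher in eHDAC6, beside the 13.7% and 15.3% of all genes called lower. The median log2 differences of the 10 were −0.33 and −0.23. FECH, the ferrochelatase that inserts iron, fell by 0.44 (adjusted p = 3.44e-04) and 0.41 (8.12e-04), and PPOX, the enzyme before it, by 0.46 (0.00187) and 0.41 (0.00505). Of these 10, against the 4, 2 were lower and 1 higher in GATA1TSS, and none was called in eHDAC6. The medians were −0.11 and −0.05, with the same 10.2% and 1.49% of all genes called. In eHDAC6 4 of the 10 had an unadjusted p under 0.05, beside 14.7% of all genes. Mean levels in GATA1TSS, eHDAC6 and the 4 were close, at 135, 138 and 141 CPM for FECH and 79.9, 83.2 and 86.6 CPM for PPOX. ALAD, another gene of this list, went the other way. It averaged 41.6 CPM in GATA1TSS and 38.9 CPM in eHDAC6, above 33.2 CPM in all NC libraries and 32.95 CPM in the 4. Of 10 tested neighbours of the alpha cluster, 1 was lower and 2 higher in GATA1TSS, near the share of calls over all genes, and 1 was lower and 4 higher in eHDAC6, where 15.8% of all genes were higher. NPRL3, whose introns hold the alpha globin enhancers, fell by 0.28 (0.00381) and 0.24 (0.0130), and LUC7L rose by 0.50 in eHDAC6 (4.09e-04). None of these neighbours was called in GATA1TSS against the 4, and 1 was higher in eHDAC6. The beta cluster pseudogene HBBP1 fell by 0.45 in GATA1TSS (9.36e-04) and by 0.50 in eHDAC6 (3.92e-04). Against the 4 HBBP1 gave 0.02 and −0.04, called in neither. BGLT3, another gene of the beta cluster, at a mean of 5.1 CPM in NC libraries, was not called against all 12. It gave −0.16 in GATA1TSS (0.498) and −0.23 in eHDAC6 (0.282).

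The genes whose levels ran closest to the summed embryonic, fetal and alpha globin RNA were sought among 8883 genes averaging at least 10 CPM, by Pearson's r of log2 CPM over the 24 libraries. FECH had r = 0.97, the pseudogene HBBP1 0.97 and PKLR, the red cell and liver pyruvate kinase, 0.97, followed by ERMAP, a red cell membrane adhesion protein, at 0.94 and C17orf99 at 0.93. Within the 12 libraries of the targeting sgRNAs alone these values were 0.92, 0.89, 0.90, 0.76 and 0.84. Within the 12 NC libraries, with their division, they were 0.97, 0.98, 0.98, 0.98 and 0.96. GATA1 had rank 1364 with r = 0.52 over the 24 libraries, 0.13 within the 12 targeting libraries and 0.10 within the 12 NC libraries. KLF1 had rank 645 with r = 0.67 over the 24, 0.38 within the 12 targeting libraries and 0.70 within the 12 NC libraries. Among the members, HBG1 and HBG2 had r = 0.9996, HBZ and HBE1 had r = 0.94, and HBB had 0.21 to 0.32 with the others. These correlations describe libraries that share groups, controls and the division among the controls, and they carry no test.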

How the data were processed

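Polyadenylated RNA of 24 K562 libraries was sequenced as strand-specific paired ends, per the labels' protocols. The authors deposited 1 table of raw read counts per gene entry, not normalized. Per the submitters' processing notes, the build was hg19 and the tools named, in no stated role, were TopHat2 2.0.8, Bowtie2 2.1.0, SAMtools 0.1.19 and Picard. The counter, the use of strand and the treatment of reads that match near-identical genes: not given in the sources used here. No gene overlaps a span of the 10 genes in the deposited gene models. From the counts, genes were kept with edgeR 4.0.16 in R 4.3.3 (minimum count 10, minimum total 15, proportion 0.7), scaled by TMM (factors 0.951 to 1.03) and fitted with 1 coefficient per sgRNA over 24 libraries by edgeR's quasi-likelihood test. A target's value is the average over its sgRNAs less that over the 4 NC sgRNAs, so the error is the spread between replicates within an sgRNA, and p-values do not cover the spread between sgRNAs. An SE is the log2 difference divided by the square root of its F value, and intervals are 95%. CPM use TMM-scaled library sizes, and levels per kb divide by the exon length of the deposited gene models. Tests were tried on simulated counts with known changes, drawn with the same spread setting for all genes and no division among the controls. The simulation therefore cannot show how the tests behave with the divided controls of these data.

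DESeq2 1.42.0, other scalings, filters, controls, fits with the replicate number as a block and fits without each library were run as alternatives, some of them, such as scaling factors computed without the 10 genes, added after seeing the data. Same-numbered replicates were checked for pairing: of 84 pairs across sgRNAs, 8 had a correlation of deviations over 0.1 (range −0.197 to 0.431). Taken over all sgRNAs, the numbers do not pair the libraries. NC-Guide3 and NC-Guide4, whose replicates the division of the controls splits by number, gave 0.431, 0.0779 and 0.175 for replicates 1, 2 and 3. The 10 genes, the gene lists and the division of the controls were chosen with earlier results of these data known. All 10 genes are described, and from each list up to 4 called genes with the largest log2 differences could be named. Genes of like pattern were ranked by r with the log2 sum of HBZ, HBE1, HBG1, HBG2, HBA1 and HBA2 (prior count 2).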

Additional observations from a re-analysis of the deposited data

Results flagged for a closer look

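Among 20 sets of 6 libraries (each of the 10 genes in GATA1TSS and in eHDAC6), 2 held a library far from the others. Chance gives about 1 in 20 for separate sets of 6 like libraries. Here each set joined 2 sgRNAs and most genes ran together, so that rate is only a rough guide. HBZ in GATA1TSS was highest in GATA1TSS-Guide1 replicate 2, at 1143 CPM. HBB in eHDAC6 was highest in eHDAC6-Guide1 replicate 2, at 1.33 CPM, which is 15 counts.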

How the results depend on the processing

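Counts of called globin genes depended most on the controls and on which spread set the error. GATA1TSS minus NC (9 called) gave 0 against the 4 NC libraries that stand apart, 1 against NC-Guide3 and NC-Guide4 (5 at an unadjusted p under 0.05) and 0 with counts summed per sgRNA (8). eHDAC6 minus NC (9) gave 0, 0 (5) and 1 (9) under the same alternatives. Against NC-Guide3 and NC-Guide4, 23.3% (GATA1TSS) and 21.6% (eHDAC6) of all genes had an unadjusted p under 0.05. With counts summed per sgRNA these shares were 22.4% and 23.6%. GATA1TSS-Guide2 minus GATA1TSS-Guide1 (0) gave 1 by DESeq2, without a filter or with copies summed, and 3 with only its 6 libraries. eHDAC6-Guide2 minus eHDAC6-Guide1 (0) gave 6 with only its 6 libraries. Against NC, GATA1TSS-Guide2 (9) gave 3 against the 4 and 5 against NC-Guide3 and NC-Guide4. GATA1TSS-Guide1 (1) gave 4 by DESeq2, 5 without a filter, 0 with only the groups compared, 0 against the 4, 8 against the other 8, 0 against NC-Guide3 and NC-Guide4 and 9 against NC-Guide1 and NC-Guide2. eHDAC6-Guide2 (6) gave 2 with only the groups compared, and 0 against the 4 and against NC-Guide3 and NC-Guide4, and eHDAC6-Guide1 (8) gave 0 against both. The NC sgRNAs among themselves (4) gave 8 without a filter and 0 in a fit of NC alone (7). Cause was not tested.

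Signs of called differences turned only against the 4: GATA1TSS gave 0.12 for HBZ, 0.033 for HBA1, 0.0545 for HBA2 and 0.14 for HBD, eHDAC6 0.0515 for HBD and 5e-04 for HBQ1, GATA1TSS-Guide2 0.0053 for HBD, and eHDAC6-Guide2 0.0052 for HBZ, 0.10 for HBE1, 0.0833 for HBG1, 0.083 for HBG2, 0.0779 for AHSP and 0.0035 for HBQ1. Signs of uncalled ones also turned: GATA1TSS-Guide1 had 1 of 10 genes below 0 against the 4 and 6 against NC-Guide3 and NC-Guide4 (9 against all 12), and eHDAC6-Guide2 had 1 and 9 (10). The gamma share in NC libraries was 66.6% without division by length, against 73.6%.

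Leaving out 1 library gave 7 to 9 called genes for GATA1TSS, 9 to 9 for eHDAC6, 0 to 0 for GATA1TSS minus eHDAC6 and for both pairs of sgRNAs, 5 to 9 for GATA1TSS-Guide2, 0 to 5 for GATA1TSS-Guide1, 0 to 6 for eHDAC6-Guide2, 8 to 9 for eHDAC6-Guide1 and 1 to 9 for the NC sgRNAs.

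With the replicate number as a block, the counts were 9 for GATA1TSS, 9 for eHDAC6, 0 between them, 1 (HBE1, −0.50, adjusted p = 0.0426) for GATA1TSS-Guide2 minus GATA1TSS-Guide1 and 0 for the eHDAC6 pair, 9, 1, 5 and 8 for GATA1TSS-Guide2, GATA1TSS-Guide1, eHDAC6-Guide2 and eHDAC6-Guide1, and 4 for the NC sgRNAs. Taken over all sgRNAs the numbers do not pair the samples, and 7 of 24 libraries correlated best with their own number. Depth limits HBB most, at 3 to 34 counts per library.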
